A study of Mus musculus with 11 samples.

Results

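The developmental transcription factors outside the Hox clusters comprise 96 of 21281 protein-coding genes of chromosomes 1 to 19. They were chosen by symbol alone, as the numbered Pax, Lhx, Gata, Tbx, Irx, Dlx, Msx, Sox and Six-family genes together with the Nkx genes and the genes of some Fox subfamilies, Foxa, Foxc, Foxd and Foxf among them, with Sox2 and Tbx3 left out. The families hold 16 Sox, 14 Nkx, 12 Fox, 11 Tbx, 9 Pax, 8 Lhx, 6 Dlx, 6 Irx, 6 Six-family, 5 Gata and 3 Msx genes. The rule uses no measured value. Histone binding was read in 8 kb around the transcription start site (TSS), 4 kb to either side, and over the gene body, in ppm, the number of interval midpoints per 1000000 intervals of a library.

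The 11 ChIP-Seq libraries map histone variants in mouse cells of 129 X C57bl/6 background. KH2 embryonic stem (ES) cells carry the Dox-dependent activator M2rtTA at ROSA26 and a TetO-driven, HA-tagged histone downstream of Col1a1, so that all HA libraries share these alleles, the no Dox library included. HA-H3.3 ES cells were treated with Dox at 2 μg/ml for 3 h or 6 h. HA-Macro ES cells, which express HA-tagged MacroH2A2, were taken without Dox or after 3 h, 6 h or 12 h at the same dose, and HA-Macro mouse embryonic fibroblasts (MEFs) after 3 h, 6 h or 12 h. The MEFs come from chimeric embryos at E12.5, were selected with puromycin for descendants of the engineered cells and were used at passage 2, and the ES cells were depleted of feeder MEFs by preplating. Antibodies to MacroH2A2 itself were used in ES cells and in MEFs, with 2 replicates combined in each library and the Dox state not taken as known. The paper's legends describe its anti-MacroH2A2 data as made in HA-Macro ES cells and HA-Macro MEFs, which carry the same alleles. Each condition has 1 library of 6485439 to 20540691 intervals, so that no difference can be set against a spread between replicates, no test was made, and intervals for single genes cover counting error only.

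The identity of the cells could not be checked by expression, since the assay reads DNA. At 9 ES cell markers HA-H3.3 at 6 h had a median of 16.0 ppm (range 4.66 to 36.0), against 5.69 (2.05 to 17.8) at 9 fibroblast markers. Anti-MacroH2A2 in MEFs had a median of 4.30 (2.35 to 6.91) at the ES cell markers and 2.89 (1.81 to 6.38) at the fibroblast markers.

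These genes encode DNA-binding proteins that set the identity of tissues during embryonic development, and most are silent or poised in ES cells. Their promoters are often CpG islands held by Polycomb complexes and marked by both active and repressive histone methylation. H3.3 is the histone H3 variant placed outside DNA replication, mostly at active promoters and gene bodies. MacroH2A2 is an H2A variant with a large globular domain and is best known from silent chromatin, the inactive X chromosome among it. The paper infers fast exchange where the tagged histone is high early after induction relative to later times. The ES cells are cycling, so that early signal alone can also come from replication. The antibody to the variant itself reads the standing level.

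MacroH2A2 was high at the developmental factors in both cell types. With the antibody to MacroH2A2 the median level in 8 kb was 7.37 ppm in ES cells (quartiles 5.74 and 8.92) and 5.77 in MEFs (4.83 and 7.28), against 4.21 and 3.22 over all protein-coding genes. In ES cells 94 of the 96 genes lay above the all-gene median, and in MEFs 95. The top 10% of all genes held 38 of them in ES cells (39.6%) and 46 in MEFs (47.9%). HA-Macro in MEFs gave a like picture, with medians of 5.90, 5.87 and 6.18 at 3 h, 6 h and 12 h against 3.02, 3.12 and 3.02 over all genes, and 47 of the 96 genes (49.0%) in the top 10% at 12 h.

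**Figure D1:**
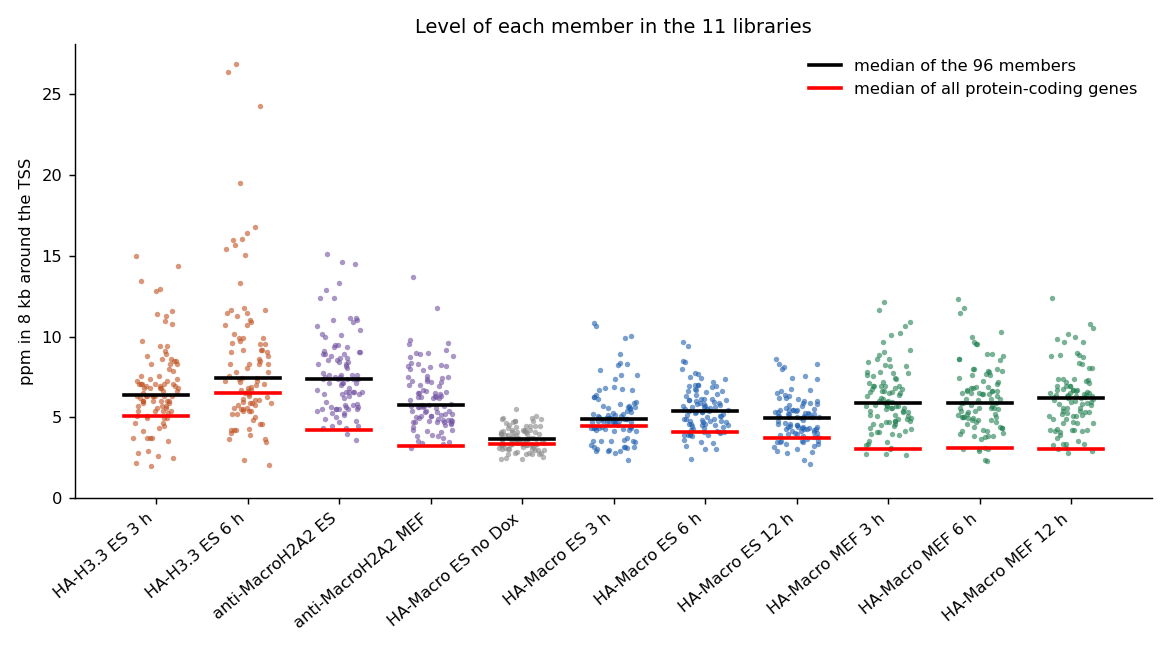
Level of each of the 96 developmental factors (points) in the 11 libraries, as ppm in 8 kb around the TSS, with the median of the 96 genes in black and of all protein-coding genes in red. The medians lie farthest apart in the 3 HA-Macro MEF libraries and the 2 anti-MacroH2A2 libraries (7.37 against 4.21 in ES cells) and are close in the no Dox library (3.67 against 3.35).

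The same genes stood less far from all genes in HA-H3.3. Their median was 6.40 ppm at 3 h and 7.42 at 6 h, against 5.09 and 6.53 over all genes and 6.55 and 9.51 over the 9104 genes with a CpG-rich promoter. At 3 h 75 of the 96 genes lay above the all-gene median and 10 (10.4%) in the top 10% of all genes. At 6 h 59 lay above the all-gene median, 8 (8.33%) in the top 10%, and 28 above the median of the CpG-rich promoters. HA-Macro in ES cells had medians of 4.88, 5.39 and 4.97 at 3 h, 6 h and 12 h against 4.48, 4.07 and 3.72 over all genes, and 9, 21 and 17 of the 96 genes (9.38%, 21.9% and 17.7%) in the top 10%. The HA antibody without Dox gave 3.67 at the developmental factors and 3.35 over all genes. Each level is scaled to its own library, so that the share of background in the HA-Macro levels cannot be read from these values.

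Base composition differs between the sets and moves with these levels. A CpG-rich promoter, with at least 50% GC and a CpG ratio of at least 0.6 within 600 bp of the TSS, was found at 63 developmental factors (65.6%) and at 42.8% of all genes. The 8 kb window held a median of 31.8 CpG per kb, against 16.4 over all genes and 22.0 over the CpG-rich promoters. Anti-MacroH2A2 was higher at the 63 developmental factors with a CpG-rich promoter, at 7.61 in ES cells and 6.24 in MEFs, than at all CpG-rich promoters, at 4.68 and 3.16. At the 33 without one it was 6.55 and 5.64. These sets are not matched in CpG density, with which the anti-MacroH2A2 level in ES cells had a Spearman rho of 0.48 over the 96 genes and 0.60 over all genes, as a description, and in MEFs 0.17 and 0.29. The part of CpG density in the levels was not tested.

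Further gene groups gave similar levels, so that none of this is shown to be particular to these families. The 39 Hox genes, which pattern the body axis, had anti-MacroH2A2 medians of 6.32 in ES cells and 5.03 in MEFs. The 72 other developmental factors, chosen from further families of such regulators, had 7.55 and 6.24. No test of these differences could be made.

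Relative to the no Dox library, anti-MacroH2A2 in ES cells was at least 1.5-fold higher at 85 of the 96 developmental factors, where 36.6% of all genes passed the same fold. The median log2 ratio was 1.03, against 0.38 over all genes and 0.48 over CpG-rich promoters, and no developmental factor was 1.5-fold lower. The comparison is between antibodies and between interval lengths (400 bp against 150 bp). The lowest ratios were those of Gata3 (−0.15), Tbx19 (0.22) and Pax1 (0.37), whose counting intervals include 0.

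The MacroH2A2 excess was not limited to the TSS. In the 92 developmental factors outside the 100 kb tiles with the strongest no Dox signal, anti-MacroH2A2 in ES cells averaged 0.664 ppm per kb from 4 to 2 kb upstream, 1.38 within 600 bp of the TSS and 0.954 from 2 to 4 kb downstream. Over all genes the averages were 0.471, 0.938 and 0.502. In MEFs the developmental factors averaged 0.675 upstream, 0.921 at the TSS and 0.804 downstream, against 0.426, 0.555 and 0.406. The side downstream of the TSS was thus 0.52 (log2) above the upstream side in ES cells and 0.25 in MEFs, where all genes gave 0.09 and −0.07.

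HA-H3.3 formed a peak at the TSS that was flatter at the developmental factors than at CpG-rich promoters. At 6 h the average within 600 bp was 1.70 ppm per kb at the developmental factors, 1.87 over all genes and 2.92 at CpG-rich promoters. The log2 ratio of centre over upstream was 1.11, 1.57 and 1.93. HA-Macro in ES cells at 3 h showed the same order, with 0.802, 0.830 and 1.20 at the centre, and at 12 h the centre had come down to 0.656, 0.552 and 0.627. In MEFs at 12 h the centre was at 0.871 for the developmental factors, 0.472 for all genes and 0.448 for CpG-rich promoters.

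**Figure D2:**
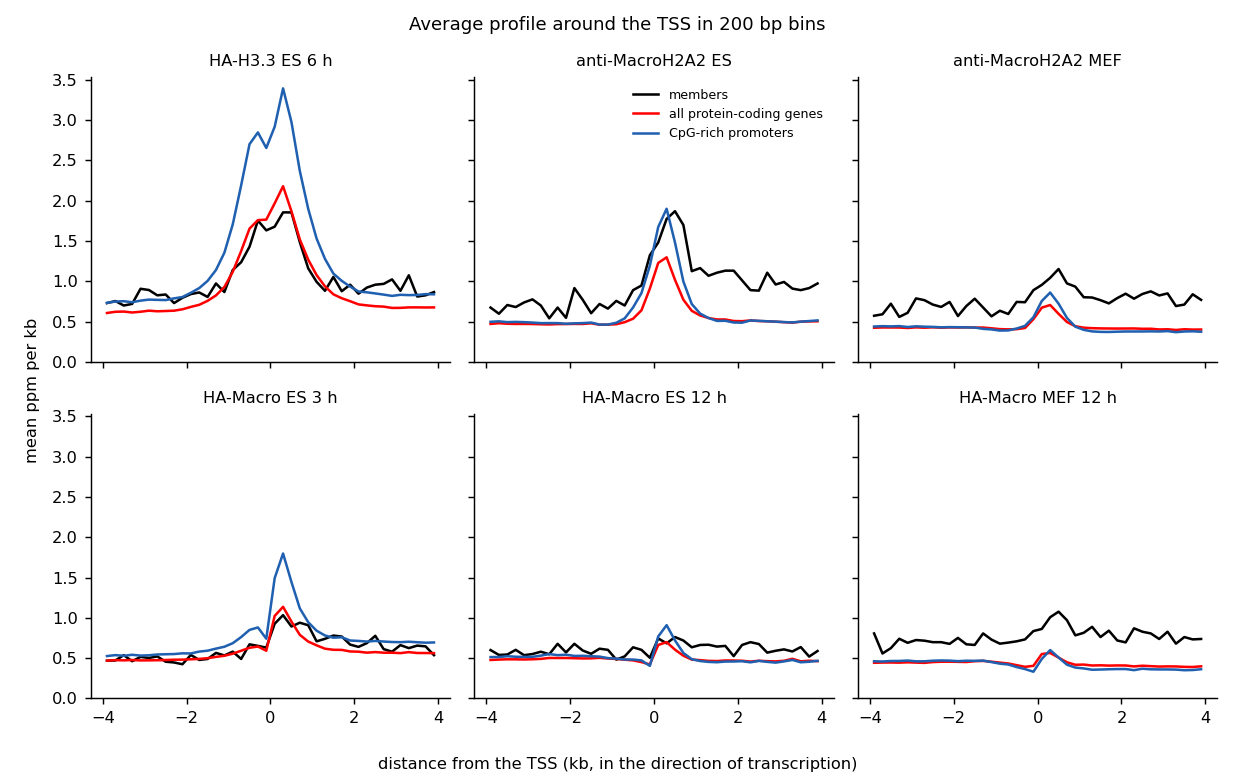
Mean ppm per kb over 4 kb on either side of the TSS in 6 libraries, in 200 bp bins, for the developmental factors (black), all protein-coding genes (red) and CpG-rich promoters (blue), outside the discarded tiles. In the anti-MacroH2A2 libraries and HA-Macro MEF 12 h the black line lies above the others over nearly the whole window, while in HA-H3.3 and HA-Macro ES 3 h the CpG-rich promoters have the highest peak (2.92 against 1.70 within 600 bp in HA-H3.3).

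Over gene bodies, per length, the developmental factors lay above all genes with both histones. With anti-MacroH2A2 the median developmental factor held 1.05 ppm per kb of gene body in ES cells, and 0.821 in MEFs, against 0.481 and 0.380 over all genes. Its HA-H3.3 body density at 6 h was 0.935, against 0.589, so that HA-H3.3 lay farther above all genes over bodies than in 8 kb. Of the 96 genes 76 were above the all-gene median of body density at 3 h and 74 at 6 h, with 21 (21.9%) and 12 (12.5%) in the top 10%. The genes are short, with a median length of 5743 bp against 15618 bp over all genes, so that the 8 kb window and the body share much of their sequence. The body was counted from the annotated start, so that the TSS side weighs more in the density of a short gene. The part of gene length in these differences was not tested. Pax3, a regulator of neural crest and muscle precursors that spans 95868 bp, held 0.436 per kb in ES cells and 0.573 in MEFs. The 2902 bp of Nkx2-5, a cardiac homeobox factor, held 2.02 and 1.34.

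Families differed in level. In ES cells the median anti-MacroH2A2 level was highest in the Gata genes (8.90), which act in blood and endoderm, and the Irx genes (8.84), which pattern neural tissue and heart, and lowest in the Pax (5.50), Lhx (6.38) and Msx (6.44) genes. In MEFs the Dlx (6.85), Fox (6.85) and Lhx (6.81) families were highest and the Sox family lowest (4.80). The widest range was that of the Sox genes in ES cells, from 4.68 to 15.1, and of the Tbx genes in MEFs, from 3.42 to 13.7, and the families overlapped. By role, the 33 genes of nervous system and eye had medians of 7.61 in ES cells and 6.44 in MEFs, the 23 of endoderm, heart and blood 7.37 and 6.24, the 30 of mesenchyme and skeleton 7.14 and 5.17, and the 10 in none of these lists 6.55 and 4.87.

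**Figure D3:**
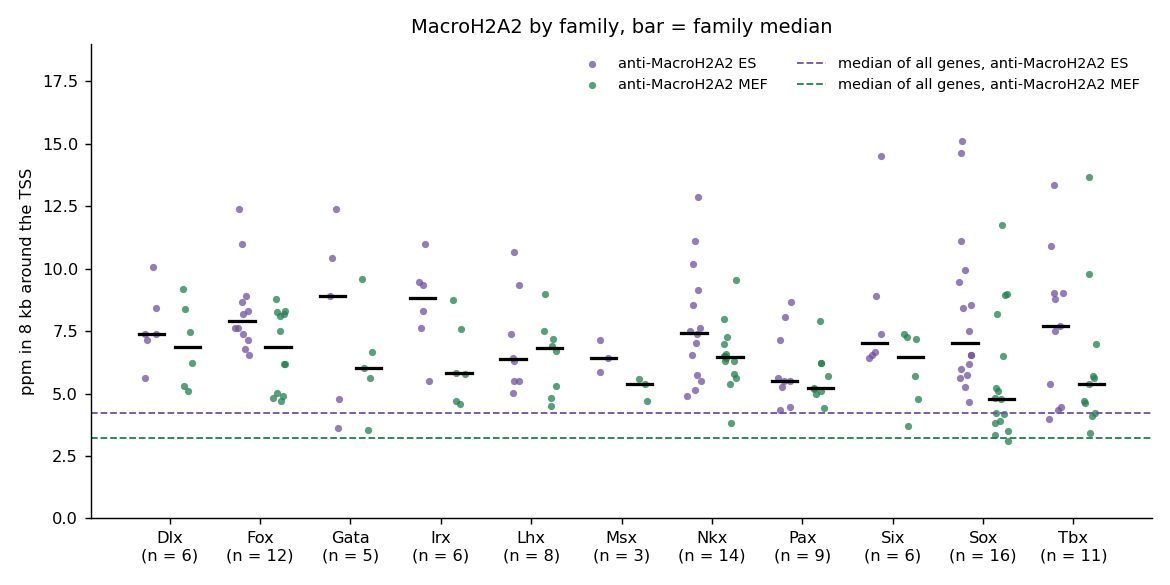
Anti-MacroH2A2 level of each developmental factor by family, in ES cells (violet) and MEFs (green), as ppm in 8 kb, with a bar at the family median and dashed lines at the all-gene medians of 4.21 and 3.22. Nearly all genes lie above the dashed line of their library, and the Sox and Tbx families spread the widest.

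A few genes carried the highest MacroH2A2 in both cell types. Sox10, a neural crest and glial factor, held 15.1 ppm with anti-MacroH2A2 in ES cells, 11.8 in MEFs and 10.9, 10.3 and 10.1 with HA-Macro in MEFs at 3 h, 6 h and 12 h. In the HA-Macro ES libraries it held 4.23 without Dox and 5.57, 7.17 and 7.44 at 3 h, 6 h and 12 h, and in HA-H3.3 8.63 and 6.44. Tbx1, a pharyngeal arch factor, was highest of all members in MEFs, at 13.7 with the antibody and 12.2, 12.3 and 12.4 with HA-Macro. It lies in a discarded tile, with 4.95 without Dox. Gata2, needed in blood stem cells, held 12.4 in ES cells, 9.60 in MEFs and 10.8 with HA-Macro in MEFs at 12 h. Also high with the antibody in ES cells and MEFs were Sox8 (14.6 and 8.99), Nkx1-1 (12.9 and 9.53), Foxf1a (12.4 and 8.79), a factor of gut and lung mesenchyme, and Tbx4 (10.9 and 9.80).

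At the low end, Tbx19, a pituitary factor, was at most 1.16-fold above the no Dox level in the other ES libraries. It held 3.43 ppm without Dox, 2.16 and 2.05 in HA-H3.3, 2.36, 2.43 and 2.12 in HA-Macro ES cells and 3.98 with anti-MacroH2A2. In MEFs it held 4.23 with the antibody and 3.10, 3.03 and 3.12 with HA-Macro. Gata3, a factor of T cells and inner ear, was low with the antibody in ES cells (3.63) and MEFs (3.56) but held 6.38 with HA-Macro in MEFs at 12 h.

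HA-H3.3 picked out another set. Sox15 and Sox12 led at 6 h with 26.9 and 26.4 ppm, after 15.0 and 14.3 at 3 h, against 3.27 and 3.67 in the no Dox library. Sox15 has another protein-coding TSS 7328 bp away, and the part of that gene in its levels was not tested. Sox15 is expressed in ES cells and muscle precursors, and Sox12 belongs to the SoxC group with Sox4 and Sox11. Six5 (24.2, in a discarded tile), Nkx6-2 (19.5), Tbx6 (16.8), Sox7 (16.4), Foxd3 (16.0) and Six4 (15.9) came next. Foxd3 is itself a factor of pluripotent cells and neural crest, and Tbx6 of presomitic mesoderm. The 2 leading genes did not lead with anti-MacroH2A2, where Sox15 and Sox12 ranked 60 and 44 of 96 in ES cells and 86 and 96 in MEFs. Over the 96 genes the HA-H3.3 level at 6 h had a Spearman rho of 0.36 with anti-MacroH2A2 in ES cells. With HA-Macro in ES cells at 3 h the rho was 0.76, as a description.

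The 300 bases upstream of the annotated TSS are shown for the 2 genes highest in HA-H3.3 at 6 h (Sox15 and Sox12), the highest with anti-MacroH2A2 in MEFs (Tbx1) and the lowest in HA-H3.3 (Tbx19), to set their CpG content beside these levels. They read 5′ to 3′ on the gene's strand of mm9, with each CpG in capitals. Sox15 lies at chr11:69468516-69468815 (plus strand, 7 CpG), Sox12 at chr2:152223783-152224082 (minus, 37), Tbx1 at chr16:18588114-18588413 (minus, 35) and Tbx19 at chr1:167090905-167091204 (minus, 8). The median over all genes is 10 CpG and over the developmental factors 16.
Sox15: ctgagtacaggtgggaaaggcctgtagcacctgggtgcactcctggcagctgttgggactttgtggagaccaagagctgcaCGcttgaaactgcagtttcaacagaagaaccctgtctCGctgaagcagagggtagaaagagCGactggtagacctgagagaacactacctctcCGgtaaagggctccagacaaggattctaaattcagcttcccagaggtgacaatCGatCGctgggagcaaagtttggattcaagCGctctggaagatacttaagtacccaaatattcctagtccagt
Sox12: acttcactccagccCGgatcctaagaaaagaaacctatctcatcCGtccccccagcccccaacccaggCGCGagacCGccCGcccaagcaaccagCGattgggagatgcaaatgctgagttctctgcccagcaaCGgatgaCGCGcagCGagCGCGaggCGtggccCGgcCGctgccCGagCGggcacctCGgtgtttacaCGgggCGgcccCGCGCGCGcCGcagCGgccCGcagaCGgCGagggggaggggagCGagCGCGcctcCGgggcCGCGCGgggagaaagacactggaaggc
Tbx1: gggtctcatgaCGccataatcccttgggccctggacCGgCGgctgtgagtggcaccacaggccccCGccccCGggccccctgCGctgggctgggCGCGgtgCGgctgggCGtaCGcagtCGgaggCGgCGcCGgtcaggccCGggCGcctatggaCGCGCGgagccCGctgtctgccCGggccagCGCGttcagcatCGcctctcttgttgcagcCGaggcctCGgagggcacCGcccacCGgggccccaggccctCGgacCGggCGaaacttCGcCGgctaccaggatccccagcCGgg
Tbx19: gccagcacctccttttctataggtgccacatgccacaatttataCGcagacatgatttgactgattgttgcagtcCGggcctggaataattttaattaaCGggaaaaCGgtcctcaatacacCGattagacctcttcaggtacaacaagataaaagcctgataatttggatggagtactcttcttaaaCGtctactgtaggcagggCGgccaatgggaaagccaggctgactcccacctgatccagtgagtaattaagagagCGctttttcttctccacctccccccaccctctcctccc
The 7 CpG of Sox15 are as many as or more than in 43.9% of all genes, the 37 of Sox12 than in 95.5%, the 35 of Tbx1 than in 94.5% and the 8 of Tbx19 than in 46.9%. The 2 genes at the top of the HA-H3.3 order thus hold a sequence near the middle of all genes in CpG number and one near the upper end.

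Over no Dox, HA-H3.3 at 6 h was at least 1.5-fold higher at 76 of the 96 developmental factors, against 61.3% of all genes. The no Dox library is of HA-Macro cells with intervals of 150 bp, and the HA-H3.3 library has 400 bp, so that cell line and interval length differ as well. The median log2 ratio was 0.96, close to the 0.95 of all genes and below the 1.46 of CpG-rich promoters. Sox15 had the largest ratio, 8.21-fold (log2 3.04, 2.56 to 3.55), then Sox12 at 7.19-fold and Sox7, an endoderm and endothelial factor, at 6.05-fold. Tbx19 (log2 −0.74, −1.55 to 0.03), Pax4 and Gata3 had the lowest. With the all-gene median set equal, 23 were 1.5-fold higher and 10 lower, where 28.1% and 33.3% of all genes were. Within 600 bp of the TSS the median was 1.65 over 76 developmental factors, below the 2.09 of all genes.

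From 3 h to 6 h of Dox, the median log2 ratio of HA-H3.3 over the 96 developmental factors was 0.29, against 0.34 over all genes and 0.54 over CpG-rich promoters. At least 1.5-fold higher were 17 (17.7%), where 31.1% of all genes were, and 1.5-fold lower were 2 (2.08%), where 10.3% were. With the all-gene median set equal these were 3 and 10, where 9.20% and 20.2% were. Over gene bodies the median was 0.14 (all genes 0.16), with 10 higher and 3 lower, where 17.1% and 6.68% were. The highest ratio was that of Pax1, a factor of vertebral precursors, from 2.47 to 6.34 ppm (log2 1.36, 0.56 to 2.25). Irx1 went from 2.93 to 6.06. Foxd4 fell from 7.25 to 3.45 (log2 −1.07, −1.73 to −0.42). These ratios rest on 16 to 68 midpoints in each library.

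As a share of each library, the HA-Macro level of most developmental factors in ES cells was much the same at 12 h as at 3 h. A few named genes, Sox4, Sox15 and Foxd3 first among them, fell. These rises and falls are relative to the library total and give no amount of tagged histone. By the paper's account, that amount grows over the time course. At least 1.5-fold lower at 12 h were 11 of 96 (11.5%), where 29.2% of all genes and 50.7% of CpG-rich promoters were, and 1.5-fold higher were 3 (3.12%), where 8.15% of all genes were. The median log2 ratio was −0.03, against −0.19 over all genes and −0.59 over CpG-rich promoters, and it was −0.04 in the 63 developmental factors with a CpG-rich promoter. Within 600 bp of the TSS, 22 of the 82 genes past the minimum fell 1.5-fold, where 54.4% of all genes did. With the all-gene median set equal in 8 kb, 11 rose and 3 fell, the 3 being Sox4, Sox15 and Foxd3, where 15.7% and 20.2% of all genes did. At equal depth 11 fell and 8 rose. Of the 84 genes with no other TSS within 8 kb 6 fell and 1 rose. The rest of the 11 that fell and of the 3 that rose are among the 12 genes with such a TSS. The part of neighbouring genes in these ratios was not tested. The shares of all genes under these settings are not given here, so that these counts have no background beside them. From 6 h to 12 h 4 fell and none rose, where 5.41% and 1.41% of all genes did. Without replicates the difference from other genes was not tested. Before Dox to 3 h, 29 of 96 were at least 1.5-fold higher, against 39.3% of all genes, with Foxd3 (2.90-fold), Sox15 (2.72-fold) and Sox12 (2.69-fold) the highest, and with the all-gene median set equal 9 were higher and 5 lower, where 16.1% and 21.1% of all genes were.

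The 11 genes that fell included Sox4, Sox15, Foxd3, Six4, Sox13, Foxa3, Lhx1, Tbx6, Sox11 and Sox12. Sox4, a SoxC factor of progenitor cells, held 8.22, 5.76 and 3.24 ppm at 3 h, 6 h and 12 h, a log2 ratio of −1.34 (−1.80 to −0.90). Sox15 held 8.91, 5.70 and 4.14 (log2 −1.10, −1.52 to −0.70). Foxd3 held 10.6, 7.74 and 4.99 (log2 −1.09, −1.46 to −0.72). All 3 were lower at each later time. Without Dox the same genes held 3.11, 3.27 and 3.67. The 3 that rose were Gata3 (3.16 to 5.10), Tbx10 (4.25 to 6.64) and the limb factor Tbx4 (4.77 to 7.38), each with a counting interval above 0.

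Most of the falling genes were those high in HA-H3.3. Of the 28 developmental factors above the CpG-rich median of HA-H3.3 at 6 h (9.51 ppm), 9 (32.1%) fell 1.5-fold and none rose, with a median log2 ratio of −0.27. Of all genes above the same level 52.4% fell and 1.47% rose (median −0.62), and of CpG-rich promoters above it 60.9%. Of the other 68 developmental factors 2 (2.94%) fell and 3 (4.41%) rose, with a median of 0.08, where 18.8% of all genes at or below that level fell and 11.1% rose (median 0.01). The same division is therefore seen over all genes, and in both classes smaller shares of the developmental factors than of all genes fell and rose. Of CpG-rich promoters at or below that level 40.8% fell and 2.73% rose (median −0.44), so that the division was narrower there. The sets are not matched in count or base composition. The medians of the 28 were 6.72, 6.16 and 5.26 at 3 h, 6 h and 12 h, and of the 68 4.51, 4.91 and 4.46. This division was chosen after the values were seen. Across the 96 genes the HA-H3.3 level and the 12 h over 3 h ratio had a Spearman rho of −0.41 (−0.49 over 21281 genes), as a description of genes that share libraries and base composition. CpG density had a rho of −0.33 with the same ratio.

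In MEFs no developmental factor passed 1.5-fold between 3 h and 12 h of Dox, in either direction, with 1 read added to each count. Over all genes 5.00% were that much lower and 3.47% that much higher. The median log2 ratio was −0.02 against −0.03. Within 600 bp of the TSS, with fewer midpoints, 17 of 78 genes were 1.5-fold lower and 9 higher, where 18.9% and 10.8% of all genes were. At equal depth 7 of 96 were lower and 1 higher, where 9.99% and 8.92% were. From 6 h to 12 h Sox9 (7.62 to 5.06 ppm) and Nkx2-3 (10.0 to 6.67) were lower and Pax4 (2.29 to 4.14) higher, where 5.90% and 2.69% of all genes were. The highest from 3 h to 12 h was Pax4, a pancreatic factor, at 0.56 with 1 read added. Without the added read its log2 ratio was 0.59 (4.14 against 2.75 ppm, counting interval −0.02 to 1.23), just past 1.5-fold, and with the all-gene median set to 0 it was 0.59 as well. The lowest was Nkx2-4 at −0.52 with 1 read added (counting interval −1.05 to 0.03). Sox4 held 3.46, 3.12 and 3.36, Sox15 2.75, 2.39 and 2.77, and Foxd3 6.92, 7.62 and 8.37 at 3 h, 6 h and 12 h. The genes that fell in ES cells therefore showed no fall of that size in MEFs. Of these genes Six4, Sox11 and Sox12 held 3.02, 3.28 and 3.99 in MEFs at 3 h. Without Dox in ES cells they held 3.43, 4.15 and 3.67, and Sox4 and Sox15 held 3.11 and 3.27. Others, Foxd3 and Lhx1 among them, lay above their no Dox levels of ES cells (6.92 and 7.54 against 3.67 and 2.47). No HA library of MEFs without Dox was used, so that the part of background in the MEF ratios was not tested. Spearman rho of the MEF ratio with the HA-H3.3 level of ES cells was 0.14 over the 96 genes. The difference between the cell types was not tested.

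**Figure D4:**
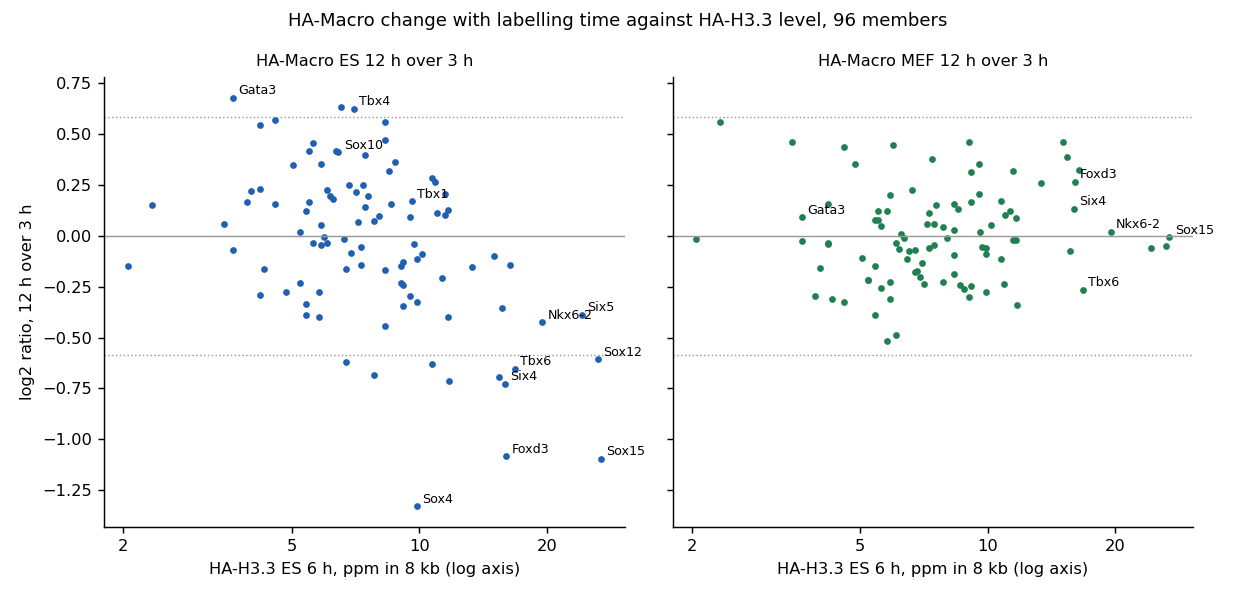
Log2 ratio of HA-Macro at 12 h over 3 h in ES cells (left) and MEFs (right) against the HA-H3.3 level at 6 h in ES cells, for the 96 developmental factors, with dotted lines at 1.5-fold. In ES cells Sox4, Sox15 and Foxd3 lie lowest (−1.33, −1.10 and −1.08 with 1 read added), and in MEFs no point passes a dotted line (1 read added).

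Between cell types, the antibody to MacroH2A2 and the HA antibody gave opposite signs for the median developmental factor when libraries were scaled to their interval totals, and the same sign when the all-gene medians were set equal (0.071 and 0.718). These ratios compare shares of libraries and give no amount of the variant. By the paper's account MEFs hold more MacroH2A2 than ES cells, and normalization makes the apparent promoter loss in MEFs too large. With anti-MacroH2A2 the median log2 ratio of MEFs over ES cells was −0.32 (all genes −0.39, CpG-rich promoters −0.57). At least 1.5-fold lower in MEFs were 27 of 96 (28.1%), where 34.6% of all genes were, and none was 1.5-fold higher, where 2.86% were. Within 600 bp of the TSS the median was −0.56 (all genes −0.90), with 35 of 78 genes lower and 2 higher, where 66.6% and 2.52% were. With HA-Macro at 12 h the median was 0.40 (all genes −0.32, CpG-rich promoters −0.43). At least 1.5-fold higher in MEFs were 27 of 96 (28.1%), where 6.93% of all genes were, and 1.5-fold lower were 5 (5.21%), where 28.7% were. At equal depth the median was 0.25 (all genes −0.27), with the same counts of 27 and 5, and over gene bodies 0.26 (−0.39). Within 600 bp 37 of 90 genes were higher and 12 lower, where 18.0% and 36.2% were. At 3 h the HA-Macro median was 0.39, with 34 genes higher and 11 lower (12.8% and 45.5% of all genes), and at 6 h 0.19, with 16 and 8 (6.99% and 33.6%). With the all-gene medians set equal, 8 genes were 1.5-fold higher and 7 lower with anti-MacroH2A2, and 57 higher and none lower with HA-Macro at 12 h, where 12.3%, 10.0%, 16.8% and 9.40% of all genes were.

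By sign alone, 54 of the 96 genes (56.2%) were lower in MEFs with anti-MacroH2A2 and higher with HA-Macro, 21 (21.9%) were higher with both and 21 lower with both, where 17.0%, 12.4% and 61.4% of the 20537 genes past the minimum in both comparisons were. None was higher with anti-MacroH2A2 and lower with HA-Macro, where 9.24% of all genes were. Relative to the all-gene median of each comparison, 57 lay above it with the antibody, the same 57 lay above it with both, and 86 with HA-Macro, where 50.0%, 33.4% and 50.3% of all genes did. No HA library of MEFs without Dox was used here.

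**Figure D5:**
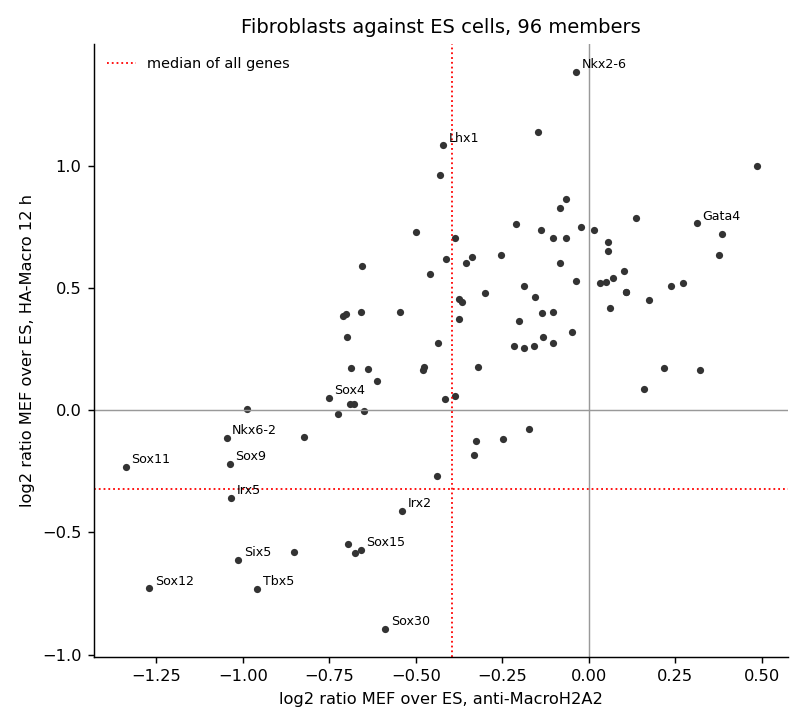
Log2 ratio of MEFs over ES cells for the 96 developmental factors, anti-MacroH2A2 on the horizontal and HA-Macro at 12 h on the vertical axis, with grey lines at 0 and red dotted lines at the medians of all genes (−0.39 and −0.32). Most points lie upper left, lower in MEFs by the antibody and higher by HA-Macro, and Sox12, Tbx5, Six5 and Sox30 lie lowest.

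Of the 21 genes lower in MEFs with both measures, by sign alone, 7 were of the 16 Sox, 3 of the 6 Irx and 3 of the 6 Six-family genes, beside 61.4% of all genes. Sox11, a SoxC factor of neural and mesenchymal progenitors, went with anti-MacroH2A2 from 8.54 ppm in ES cells to 3.36 in MEFs. As a share of the library it was 2.55-fold lower (log2 −1.35, −1.90 to −0.81). Sox12 went from 7.49 to 3.09 (log2 −1.28, −1.86 to −0.71), and from 6.48 to 3.89 with HA-Macro at 12 h (log2 −0.73, −1.16 to −0.32). Nkx6-2 went from 11.1 to 5.37, Sox9, the cartilage factor, from 9.95 to 4.83, and Irx5 from 9.36 to 4.56 with anti-MacroH2A2. The limb and heart factor Tbx5 went from 5.52 to 3.31 with HA-Macro at 12 h, and Sox30 from 5.47 to 2.92. As families, Sox and Irx had the lowest anti-MacroH2A2 medians (−0.62 each), and their HA-Macro medians were 0.04 and −0.03.

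Genes higher in MEFs with HA-Macro at 12 h included factors of heart and kidney. Nkx2-6, a pharyngeal and heart factor, held 2.39 ppm in ES cells and 6.33 in MEFs, 2.65-fold higher (log2 1.41, 0.91 to 1.93). Lhx1, a head organizer and kidney factor, went from 3.03 to 6.47 (2.14-fold). With anti-MacroH2A2 both genes were not higher in MEFs, at 5.74 and 5.64 for Nkx2-6 and 6.44 and 4.83 for Lhx1. Gata4, a heart and endoderm factor, was higher with both, from 3.56 to 6.09 with HA-Macro and from 4.80 to 6.04 with anti-MacroH2A2.

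Master regulators of single lineages lay mostly inside these ranges. Pax6, the eye and neural factor, held 5.50 ppm in ES cells with the antibody and 5.17 in MEFs, with 9.51 in HA-H3.3 at 6 h. Foxa2, an endoderm factor, held 8.89 and 8.12, and 5.41 in HA-H3.3. Gata6, also of endoderm, held 8.89 and 5.64, and 6.72 in HA-H3.3. Dlx5 and Msx1, factors of skeleton and face, held 7.37 and 6.44 in ES cells and 8.39 and 4.70 in MEFs.

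Within mesenchyme, the antibody levels in MEFs spread from genes near the all-gene median of 3.22 to genes well above it. Foxf2, a factor of gut and palate mesenchyme, held 8.19 ppm in MEFs. Six2, of kidney progenitors, held 8.89 in ES cells and 7.25 in MEFs. Foxc1, of head mesenchyme and vessels, held 7.37 and 4.83, and Msx2, of skull and limb, 7.14 and 5.37. Tbx15, a factor of dermis and skeleton, held 4.45 and 4.09, and Pax9, of sclerotome and teeth, 5.50 and 5.24. Foxf2 and Six2 thus lay above the quartile of 7.28 or near it in MEFs, and Tbx15 below that of 4.83.

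Neural factors had an antibody median of 6.44 in MEFs, against 5.17 in mesenchyme. Lhx2, a forebrain and eye factor, held 5.50 ppm in ES cells and 6.71 in MEFs, Six3, of forebrain and eye, 7.37 and 5.71, Nkx2-2, of ventral spinal cord, 5.15 and 6.51, and Dlx2, of forebrain interneurons, 8.43 and 5.10. Irx3, of neural tube and heart, held 9.48 in ES cells and 5.84 in MEFs. Of the 33 genes of nervous system and eye, 7 were higher in MEFs than in ES cells with the antibody and 26 lower, with a median log2 ratio of −0.38. Of all genes 61.4% were lower with both the antibody and HA-Macro at 12 h, and 17.0% lower with the antibody and higher with HA-Macro. The counts of the neural factors thus lay near the all-gene share. At least 1.5-fold lower were 8 of the 33 (24.2%), where 34.6% of all genes were.

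Families also differed in how HA-Macro changed. In ES cells the 12 h over 3 h medians ran from −0.22 (Six-family) and −0.19 (Nkx) to 0.16 (Irx) and 0.18 (Gata). The 5 Sox genes (31.2% of 16) and 3 Fox genes (25.0% of 12) that fell were shares near the 29.2% of all genes. For MEFs over ES cells at 12 h the Fox (0.72) and Nkx (0.61) families had the highest medians, with 7 of 12 and 8 of 14 genes at least 1.5-fold higher, beside 6.93% of all genes. Of the 27 genes 1.5-fold lower in MEFs with anti-MacroH2A2, 9 were of the 16 Sox genes (56.2%) and 5 of the 11 Tbx genes (45.5%), beside 34.6% of all genes, and none of the 8 Lhx, 3 Msx and 9 Pax genes was among them. The families are small, and these values are descriptions.

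Levels of the variant and of its tagged form ranked the developmental factors alike within a cell type. Spearman rho over the 96 genes was 0.84 between anti-MacroH2A2 and HA-Macro at 12 h in MEFs and 0.69 in ES cells (all genes 0.79 and 0.72). Between ES cells and MEFs the antibody levels had a rho of 0.53 (all genes 0.70). Anti-MacroH2A2 and no Dox levels had a rho of 0.59 in ES cells (all genes 0.38), and HA-H3.3 and anti-MacroH2A2 0.36 (all genes 0.55). Genes are not independent replicates, and these values describe 96 genes in single libraries.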

How the data were processed

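Per the labels and the methods of the study, the authors immunoprecipitated sheared chromatin, sequenced it, mapped reads to mm9 with Bowtie 1.0 (name and version from the submitters' processing notes), allowing a single mismatch and keeping 1 location of repeated reads, and extended them. The deposited files hold mapped intervals (first and last base) that span 150 bp for HA-Macro and 400 bp for HA-H3.3 and for the antibody to MacroH2A2, without strand or count.

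Interval midpoints were counted within 4 kb on either side of the 5′ end of each protein-coding gene of chromosomes 1 to 19 (GENCODE vM1, mm9, 1 entry per symbol), within 600 bp of it and over gene bodies, and scaled to ppm of the intervals on chromosomes 1 to 19, X and Y. A log2 ratio has 1 read added to each count, and genes needed 20 midpoints in both libraries together. Folds and 95% intervals of single genes have no added read, the intervals being exact conditional binomial (Clopper-Pearson). Calls are at 1.5-fold of the ratio with 1 read added. Of 25686 tiles of 100 kb, the 261 with the strongest no Dox signal are the discarded tiles. They hold Foxa3, Nkx6-3, Six5 and Tbx1.

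The members, role lists and marker lists were chosen with earlier results of these data known, and genes were named from a list of well-known members and as the 3 highest and 3 lowest ratios of each comparison. Other genes (among them Sox8, Sox10, Nkx1-1, Gata2, Six5 and Tbx6) were named after their values were seen, and the anti-MacroH2A2 over no Dox comparison was added then. Sox1 is not analysed here, and some further genes and sequences are not reported here. Ratios were tested on simulated data. Python 3.11.15, numpy 2.4.6, pandas 2.3.3, scipy 1.17.1 and matplotlib 3.10.9 were used.

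Alternatives were distinct intervals, coverage, other scaling totals, equal depth, other windows, 5 added reads, a minimum of 50 or none, another TSS, isolated members, members outside the discarded tiles, 6 h in place of 3 h and a background of CpG-rich promoters.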

Additional observations from a re-analysis of the deposited data

Results flagged for a closer look

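Scaled to interval totals, the comparison of MEFs with ES cells differed in sign between the antibody to MacroH2A2 and the HA antibody. The median log2 ratio of the 96 developmental factors was −0.323 with anti-MacroH2A2 and 0.396 with HA-Macro at 12 h, each from 1 library per cell type. With the all-gene medians set equal both were above 0, at 0.071 and 0.718. The difference was not tested.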

How the results depend on the processing

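With 1 library per condition, depth limits single genes: the median developmental factor held 41.5 to 127 midpoints in 8 kb, and no replicate error could be had. No paired analysis was possible because each condition has 1 library and no test was made. Of the main medians under the alternatives, 129 values stayed within the 95% order-statistic interval of the median over the 96 genes and 24 moved. With the median of all genes set equal, the medians were −0.047 (HA-H3.3 6 h over 3 h), 0.159 (HA-Macro ES 12 h over 3 h), 0.071 (anti-MacroH2A2 MEF over ES), 0.718 (HA-Macro 12 h MEF over ES), 0.007 (HA-H3.3 over no Dox), −0.032 (HA-Macro ES 3 h over no Dox) and 0.648 (anti-MacroH2A2 ES over no Dox). Among these the sign changed in the HA-H3.3 6 h over 3 h, HA-Macro ES 12 h over 3 h, anti-MacroH2A2 MEF over ES and HA-Macro ES 3 h over no Dox medians. The HA-Macro MEF 12 h over 3 h median lay just above that of all genes, both slightly negative, so that its sign changed as well. Within 600 bp of the TSS they were −0.284 (HA-Macro ES 12 h over 3 h), −0.558 (anti-MacroH2A2 MEF over ES), 1.645 (HA-H3.3 over no Dox), 0.526 (HA-Macro ES 3 h over no Dox) and 1.479 (anti-MacroH2A2 ES over no Dox), over the 55 to 82 genes past the minimum. Over gene bodies they were 0.144 (HA-H3.3 6 h over 3 h) and 0.834 (HA-H3.3 over no Dox), and the level over all genes was 1.59 (HA-H3.3 6 h), 2.19 (anti-MacroH2A2 ES) and 2.16 (anti-MacroH2A2 MEF), from 1.14, 1.75 and 1.79. At equal depth HA-Macro 12 h MEF over ES had 0.246, with 5 reads added HA-Macro MEF 12 h over 3 h had −0.068, with 6 h in place of 3 h HA-Macro ES over no Dox had 0.536, and scaled outside the discarded tiles anti-MacroH2A2 ES over no Dox had 0.958. Against CpG-rich promoters the level was 0.779 for HA-H3.3 6 h (0.873 with CpG-rich members alone, an alternative added after seeing the data) and 1.57 for anti-MacroH2A2 ES. The genes that fell 1.5-fold in HA-Macro ES cells were 22 of 82 within 600 bp and 4 of 96 with 6 h in place of 3 h, against 11, where 54.4% and 5.41% of all genes fell. In MEFs, 17 of 78 genes were lower and 9 higher at 12 h than at 3 h within 600 bp, against none in 8 kb, where 18.9% and 10.8% of all genes were. The cause of these shifts was not tested.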

Other observations

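Members that lie close together on a chromosome did not always have the same level. Foxf1a and Foxc2, whose TSSs are 31.8 kb apart on chromosome 8, held 8.79 and 4.70 ppm with anti-MacroH2A2 in MEFs and 9.64 and 4.62 with HA-Macro in MEFs at 12 h. Tbx4 and Tbx2, 53.9 kb apart on chromosome 11, held 9.80 and 5.37 with the antibody in MEFs. Dlx5 and Dlx6, 18.8 kb apart on chromosome 6, had the same HA-Macro level in MEFs at 12 h (6.91 each). These pairs were chosen after their values were seen.

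The letters GGGCGG, the core of a GC box, stood on either strand in the 300 bases upstream of the TSS at 55 of the 96 developmental factors (57.3%) and 41.2% of all genes. CCAAT stood there at 49 (51.0%) and 38.7%, and TATAAA at 11 (11.5%) and 14.6%. These are matches of letters only.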
